A study of Saccharomyces cerevisiae with 2 samples.

Results

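Small nucleolar RNA (snoRNA) and small nuclear RNA (snRNA) genes were followed in budding yeast, Saccharomyces cerevisiae, exposed to salt. They were taken as every row of the deposited table whose name starts with snR, plus LSR1, which gave 69 of 6868 features. The strain was BY4742, a laboratory haploid of alpha mating type, and its genotype was WT his3kan on both channels of both arrays. It was grown in synthetic complete medium with shaking and brought to 0.7 M NaCl. On one 2-colour NimbleGen tiling array, cells 30 min after salt addition shared the slide with unstressed cells; on the other, cells 60 min after it did. There was 1 array per time with the same dye orientation on both, so the effect of dye cannot be told apart from that of salt. By the sample titles, unstressed cells were from time zero, so salt and time in culture cannot be told apart either. The labels do not say whether one unstressed culture served both arrays, and the unstressed channel carries a different name on each.

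Each value is the log2 ratio between the channels of an array, as the authors deposited it, and depends on the number of arrays rather than on a sequencing depth. Without replicates, values carry no error between cultures and no test was made. Genes are described by size, and one counts as higher or lower when its log2 ratio reaches 1 or -1, which is 2-fold. The direction was taken as salt over unstressed, which is likely but not stated. At 30 min 10 of 10 genes known for induction by salt had positive values, from 3.44 for HSP12 to 8.32 for STL1. Of all 6868 features, 3399 were above 0 then. These 10 genes were listed with earlier results of these data known, so their count is no independent check of the direction. "Higher" and "lower" would swap if the ratio ran the other way. Both arrays have a median of 0, so a value is relative to the other features, and a fall in RNA per cell that all features shared would not show. In bulk RNA, fewer cells with an RNA and less of it per cell cannot be told apart. Ratios give no level, so the labelled cell type could be checked only weakly; the 4 alpha-specific genes MF(ALPHA)1, MF(ALPHA)2, STE3 and SAG1 had a median of -2.52 at 30 min, against 0.19 for 6 a-specific genes.

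Most snoRNAs guide the chemical modification of ribosomal RNA (rRNA) in the nucleolus by base pairing with it. Box C/D snoRNAs direct methylation of ribose and box H/ACA snoRNAs direct the change of uridine to pseudouridine, each in a particle with its own set of core proteins. A few snoRNAs, among them U3, are needed instead for cutting the rRNA precursor. The snRNAs U1, U2, U4, U5 and U6 form the core of the spliceosome. In yeast most snoRNAs have a promoter of their own, some are cut from a shared precursor, and a few lie in introns of protein-coding genes. Mature snoRNAs and snRNAs in general lack the poly(A) tail of messenger RNA, and how the cDNA was primed was not given in the sources used here.

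The 69 genes comprised 35 box C/D snoRNAs, 29 box H/ACA snoRNAs and 5 spliceosomal snRNAs. All 69 matched a symbol of the reference gene table (assembly R64). That table lists 82 snoRNA and snRNA genes, and the other 13 were not analysed here. No member stood at exactly 0 on either array. The array's build and the probes behind each value are unknown here.

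As a group the snoRNA and snRNA genes were modestly lower after salt. At 30 min their median was -0.25 (1.19-fold lower), with an interquartile range over genes of -0.59 to 0.02, and 51 of 69 were below 0, against 49.6% of all features. At 60 min the median was -0.42 (1.34-fold lower, interquartile range -0.72 to -0.22), and 63 of 69 were below 0, against 49.5% of all features. Their values lay close together, with an SD over genes of 0.45 at 30 min and 0.37 at 60 min, where all features had 1.33 and 0.71. The values ran from -1.31 (snR67) to 0.48 (snR4) at 30 min and from -1.25 (snR81) to 0.43 (snR4) at 60 min.

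Few of them passed 2-fold, and those that did were lower. At 30 min 6 of 69 were at least 2-fold lower, where 17.3% of all features were, and none was at least 2-fold higher, where 15.8% were. At 60 min 8 of 69 were at least 2-fold lower, where 4.32% of all features were, and none was at least 2-fold higher, where 6.67% were. The share of members that were 2-fold lower was thus 8.7% and then 11.6%, below the background at 30 min and above it at 60 min. In rank, the median member stood at percentile 39.2 of all features at 30 min and at 20.5 at 60 min. None was in the lowest 10% of the features at 30 min, and 18 were at 60 min.

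**Figure D1:**
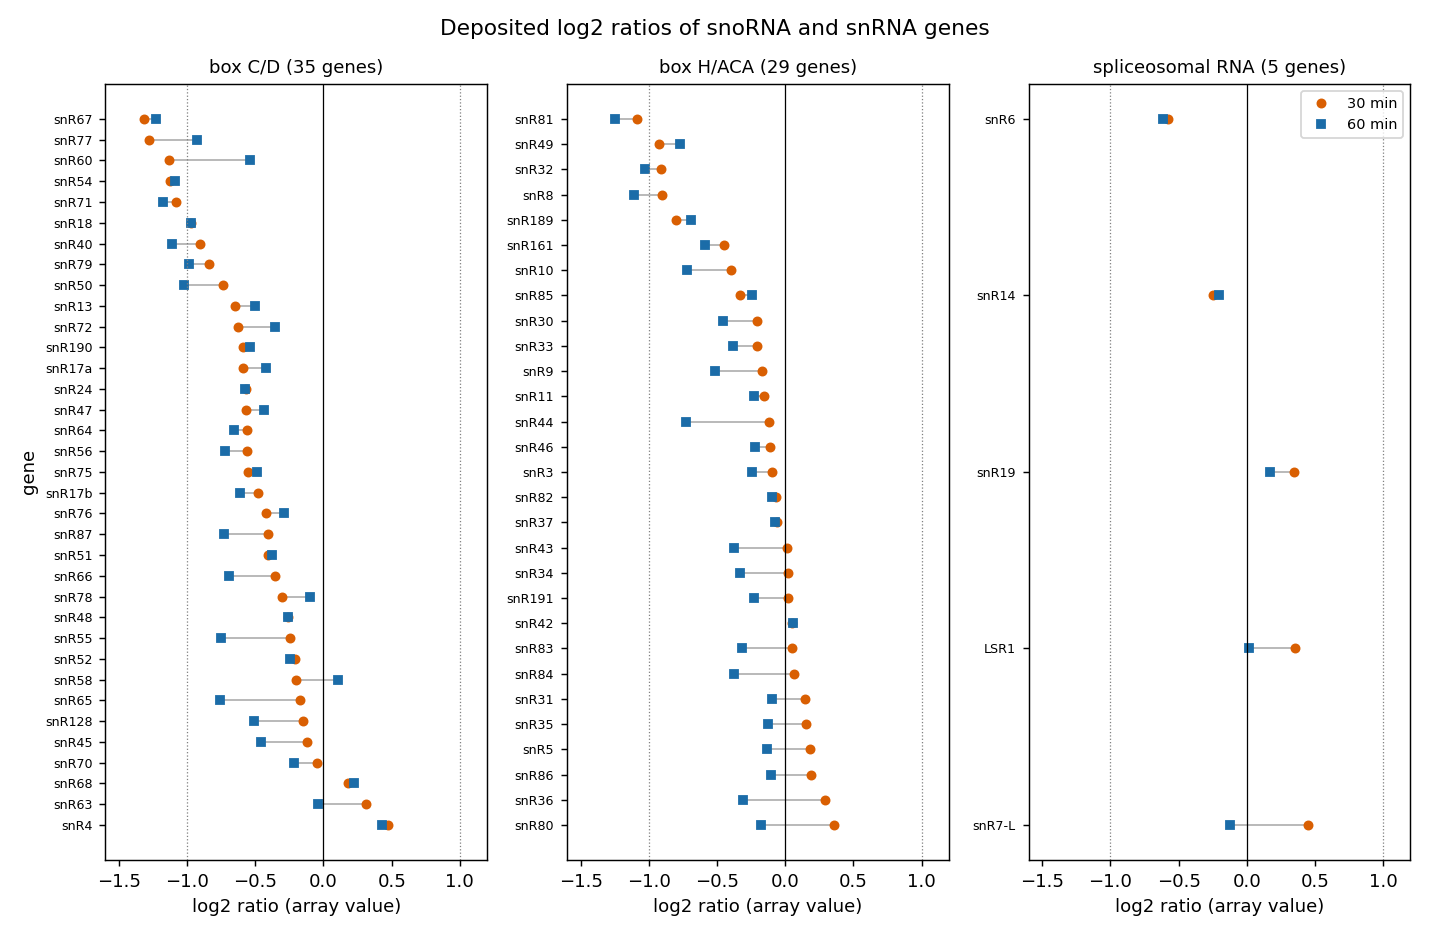
Log2 ratio (horizontal axis) of each of the 69 genes at 30 min (circles) and 60 min (squares) after salt, by class, with 1 array per time and dotted lines at 2-fold. The 35 box C/D genes have a median of -0.55 at 30 min and the 29 box H/ACA genes one of -0.09, and no point lies beyond 2-fold on the higher side.

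In all, 10 snoRNAs were at least 2-fold lower at one time or at both. Of all features, 17.3% were at 30 min and 4.32% at 60 min. The shares of all features at either time, at both or at one alone were not counted. Each of the 10 is known as a modification guide, as most snoRNAs are. Of the 64 snoRNA genes here, 5 are listed for rRNA precursor cleavage. The lowest at 30 min was snR67, a box C/D methylation guide of large-subunit rRNA, with -1.31 at 30 min (2.49-fold lower) and -1.23 at 60 min. The box C/D guide snR54, which methylates small-subunit rRNA, had -1.13 and -1.09. snR71, a box C/D guide of large-subunit rRNA, had -1.08 and -1.18. These 3 and the box H/ACA RNA snR81, with -1.09 and -1.25, were the 4 genes past 2-fold on both arrays. snR81 guides pseudouridine formation in large-subunit rRNA and in the U2 snRNA.

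2 further box C/D genes were past 2-fold at 30 min alone. snR77, a guide of small-subunit rRNA, had -1.28 and then -0.93. snR60, a guide of large-subunit rRNA, had -1.13 and then -0.54, and this gain of 0.59 was the highest among the 69 genes.

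Past 2-fold at 60 min alone were 4 genes. The box C/D RNA snR40, a guide for both subunits, had -0.90 and -1.11. The box C/D RNA snR50 had -0.73 and -1.03. The box H/ACA RNAs snR8 and snR32, guides of large-subunit rRNA, had -0.91 and -1.11, and -0.91 and -1.03. Just short of the threshold at 60 min lay snR79, with -0.84 and -0.98, and snR18, with -0.97 on both arrays. With 1 array per time, a gene on one side of 2-fold at one time is not shown to differ from a gene on the other side.

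The higher end held few genes. Above 0 on both arrays were 5 genes: snR4 with 0.48 and 0.43, snR68 with 0.18 and 0.22, snR42 with 0.05 and 0.06, and the snRNA genes snR19 and LSR1. snR4 pairs with small-subunit rRNA and guides its acetylation rather than a methylation, although it is of the box C/D type. snR45, the other acetylation guide, had -0.12 and -0.46 and so did not share this position. snR4 was the highest of the 69 genes on each array, 1.39-fold and 1.34-fold higher.

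Box C/D genes had lower values than box H/ACA genes at 30 min. The box C/D median was -0.55 (interquartile range -0.69 to -0.22) and the box H/ACA median was -0.09 (-0.33 to 0.05), a difference of 1.37-fold. Of the 35 box C/D genes 31 were below the box H/ACA median, and 5 of the 29 box H/ACA genes were below the box C/D median, so the classes overlapped. At 60 min the medians were -0.54 and -0.32, a difference of 1.17-fold, with 26 of 35 and 8 of 29 genes beyond the other median. On the deposited scale 25 of 29 box H/ACA genes and 19 of 35 box C/D genes were lower at 60 min than at 30 min, against 49.5% of all features. With the 60 min array multiplied to the spread of the 30 min array, 28 of 29 and 30 of 35 were, against 3225 of 6695 features other than members. On that scale the box H/ACA and box C/D medians at 60 min were -0.59 and -1.01, a gap of -0.41. Genes are not replicates, and the difference between the classes was not tested.

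At 30 min the box H/ACA class fell into a few low genes and a majority near 0. Besides snR81, snR32 and snR8, the low genes were snR49, a guide for both subunits, with -0.93 at 30 min and -0.77 at 60 min, and snR189 with -0.80 and -0.69. The next lowest at 30 min was snR161, a guide of small-subunit rRNA, with -0.45. At 60 min this split was not clear. snR44 with -0.73 and snR10 with -0.72 were then below snR189, and the class median was -0.32. At the upper end snR80 had 0.36 and then -0.17, and snR36 had 0.29 and then -0.31. snR35, which starts the formation of a hypermodified nucleotide of small-subunit rRNA, had 0.16 and -0.13. At 30 min 12 of the 29 genes were above 0, and at 60 min snR42 alone was. snR37, with -0.06 and -0.07, snR82, with -0.06 and -0.10, and snR42 differed least from 0 over both arrays in this class.

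Grouped by the ribosomal subunit they serve, the guides had similar medians. The guides of small-subunit rRNA (15 genes) had a median of -0.24 at 30 min and -0.46 at 60 min. Guides of large-subunit rRNA (33 genes) had -0.20 and -0.35. Members that serve both subunits, or whose main role is cleavage, are in neither list. Some others are also in neither, among them snR43 and snR81, the guide of large-subunit rRNA and U2, with -1.09 and -1.25.

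The snoRNAs of rRNA precursor cleavage were slightly lower on both arrays and did not pass 2-fold. The latter held for most members, 63 of 69 at 30 min and 61 at 60 min. Of all features, 17.3% were at least 2-fold lower at 30 min and 4.32% at 60 min. U3 RNA, which organises the first cuts around small-subunit rRNA, is encoded by a pair of near-identical genes whose probes may be shared. snR17a had -0.59 at 30 min and -0.42 at 60 min, and snR17b had -0.48 and -0.61. snR128 (U14), a box C/D RNA needed for the same cuts, had -0.15 and -0.51. The box H/ACA RNAs of this list were snR30, with -0.20 and -0.46, and snR10, with -0.40 and -0.72. The median of these 5 genes was -0.40 at 30 min and -0.51 at 60 min, near that of the whole group.

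The 5 spliceosomal snRNA genes lay within 1.53-fold of the unstressed cells on both arrays. LSR1, which encodes U2, had 0.35 at 30 min and 0.02 at 60 min. snR19 (U1) had 0.35 and 0.17, and snR7-L (the long form of U5) had 0.45 and -0.12. snR14 (U4) had -0.25 and -0.21. snR6 (U6), the one snRNA made by RNA polymerase III, was the lowest, with -0.58 and -0.62. The only other gene here that this polymerase transcribes, the box C/D gene snR52, had -0.21 and -0.24. At 30 min, U1, U2 and U5 were thus above 0, and U4 and U6, which work as a pair in the spliceosome, were below it.

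Between the times the values of snoRNA and snRNA genes moved little on the deposited scale. Of the 69 genes, none differed by 2-fold between 30 and 60 min, where 20.5% of all features did. A difference under 0.5 was found for 89.9% of them and for 54.7% of the other features. The median size of the difference, whatever its sign, was 0.17 for members and 0.44 for the others. By sign, 48 of 69 were lower at 60 min, against 49.5% of all features, and 21 were higher (median difference -0.14, against 0.01 for the other features). The lowest differences belonged to snR44 (-0.61), snR36 (-0.60), snR65 (-0.58) and snR7-L (-0.57).

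This closeness depends on the scale of the arrays. The 60 min array as a whole has a smaller spread, and when its values were multiplied by 1.88 to equal the spread of the 30 min array, the median size of the difference was 0.51 for members and 0.45 for the other features. On that scale 63 of 69 members were lower at 60 min than at 30 min, against 3225 of 6695 other features. By 2-fold, 10 members (14.5%) differed, against 18.8% of the other features. The sign of the median difference was negative on both scales.

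**Figure D2:**
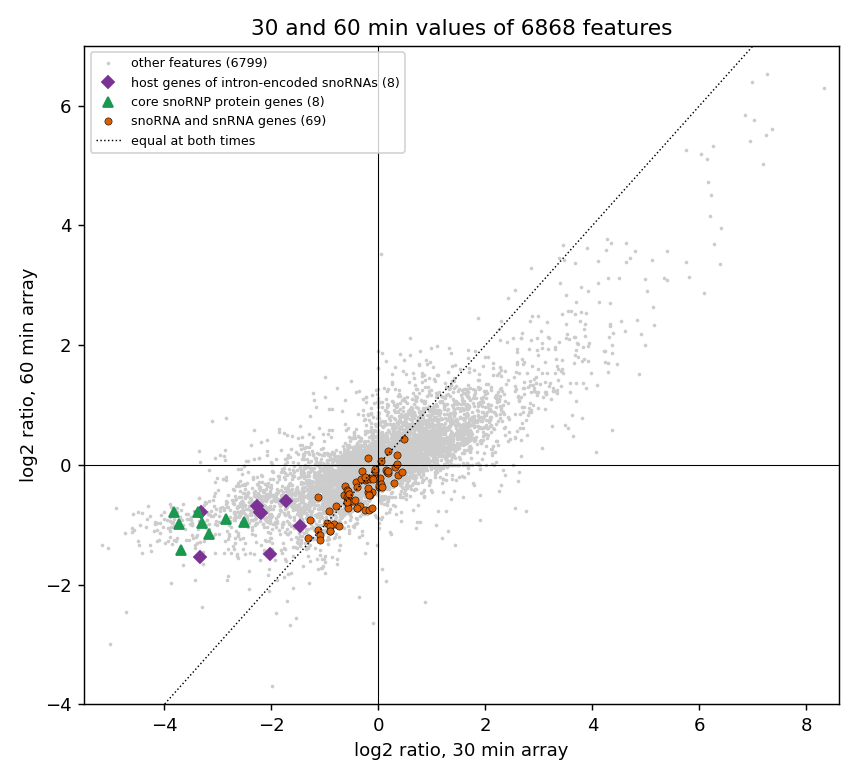
Log2 ratio at 60 min (vertical axis) against that at 30 min (horizontal axis) for each feature on its own array, with the dotted line at equal values. The 69 snoRNA and snRNA genes lie between -1.31 and 0.48 at 30 min near or below the line, whereas the 8 core protein genes lie between -3.82 and -2.52 at 30 min and above it.

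The genes for the proteins that snoRNAs bind had far lower values at 30 min than the RNAs. In the box C/D particle, NOP1, the methyltransferase (fibrillarin in other organisms), had -3.68 at 30 min and -1.41 at 60 min. NOP56 had -3.72 and -0.99, NOP58 had -3.82 and -0.79, and SNU13, which also binds U4 snRNA, had -2.85 and -0.90. In the box H/ACA particle, CBF5, the pseudouridine synthase, had -3.38 and -0.79. GAR1 had -3.17 and -1.16, NHP2 had -3.30 and -0.97, and NOP10 had -2.52 and -0.95. At 30 min the lowest snoRNA, snR67, stood at percentile 12.5 of all features. The highest of these 8 genes, NOP10, was below it, and the groups did not overlap.

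At 60 min they did overlap. The median of the 8 core protein genes went from -3.34 (10.1-fold lower) at 30 min to -0.96 (1.95-fold lower) at 60 min, while that of the RNAs went from -0.25 to -0.42. At 60 min 11 of the 69 RNA genes were below the highest core protein gene, NOP58. The next RNA gene above it, snR49 with -0.77, stood at percentile 8.39 of all features. All 8 core protein genes were higher at 60 min than at 30 min, by 1.57 to 3.03, and they remained so with the 60 min array rescaled (median difference 1.31). Of all 6868 features, 3437 were higher at 60 min on the deposited scale. On the rescaled one, 3470 of 6695 features other than members were.

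Other genes of the snoRNA pathway went the same way in part, where 17.3% of all features were at least 2-fold lower at 30 min and 4.32% at 60 min. For U3-associated proteins, 5 of 5 genes passed 2-fold downwards at 30 min (median -2.39, and -0.82 at 60 min), among them IMP3 with -3.23 and RRP9, which binds U3 directly, with -1.96. Of 11 assembly genes, 6 passed 2-fold downwards at 30 min and 5 did not (median -1.04). SRP40, a nucleolar chaperone, had -3.88, and NAF1, an assembly factor of the box H/ACA particle, had -2.32. SHQ1, a second box H/ACA assembly factor, had -0.34, and RVB2, a helicase of several complexes, had 0.17.

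Of 17 genes for snoRNA transcription and end processing, 9 passed 2-fold downwards at 30 min and none upwards (median -1.29, and -0.43 at 60 min). MTR4, the helicase that feeds RNA to the nuclear exosome, had -4.07 and then -0.98. RNT1, the endonuclease that cuts many snoRNA precursors, had -2.53 and -1.23. LHP1, the yeast La protein, had -2.50 and -0.82. The transcription termination factors NRD1, NAB3 and SEN1, which end snoRNA transcripts, had 0.68, 0.11 and -0.12 at 30 min. TBF1, the transcription factor bound at many snoRNA promoters, had -0.58 and -0.16.

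The proteins of the spliceosome were nearer to their RNAs. Of 14 Sm and Lsm genes, whose proteins form rings on the snRNAs, 4 passed 2-fold downwards at 30 min (median -0.75), where 17.3% of all features did, and none at 60 min (median -0.33), where 4.32% did. LSM3 had -1.31 and then -0.95, and SMX3 had 0.03 and -0.17. Of 11 further spliceosome genes, SNP1, a U1 protein, passed 2-fold at 30 min with -1.17, and the other 10 did not. Of all features, 17.3% were 2-fold lower, and 1 gene among 11 is not read as a difference from that share. The median of the 11 genes was -0.15 at 30 min and -0.23 at 60 min. PRP8, which sits at the catalytic centre, had 0.16 and 0.15.

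**Figure D3:**
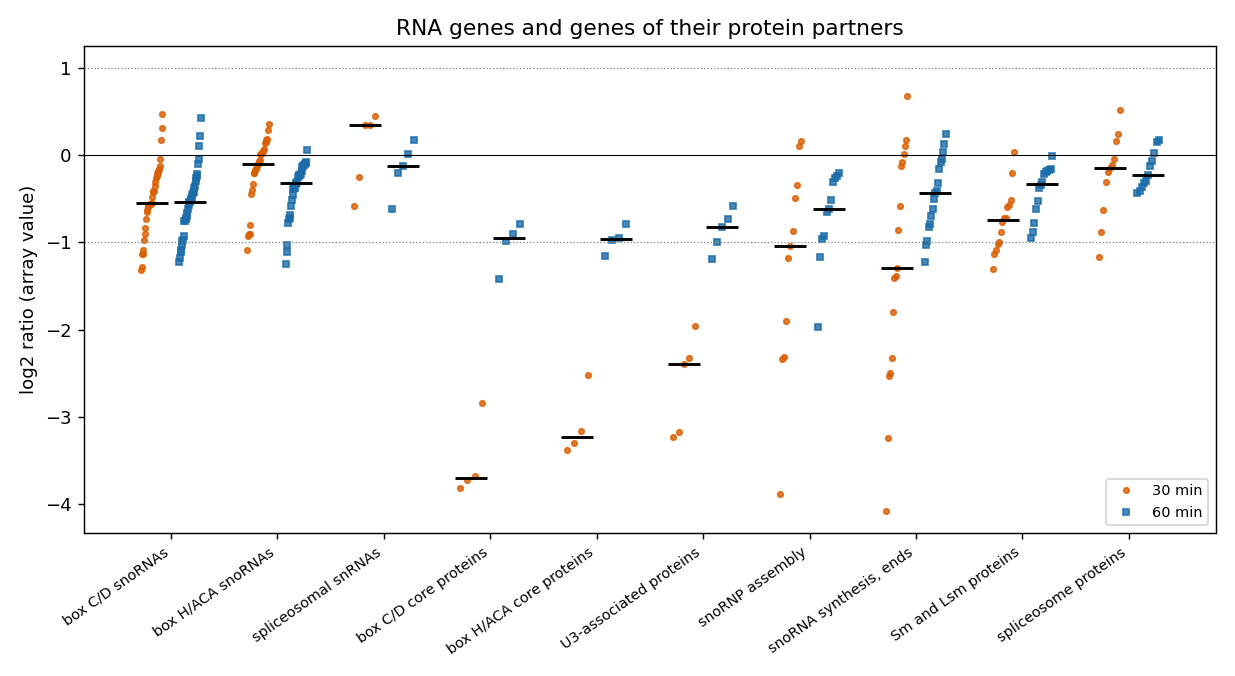
Log2 ratio (vertical axis) of the RNA genes and of the genes for their protein partners, 1 point per gene, at 30 min (circles) and 60 min (squares), with bars at the median and dotted lines at 2-fold. The core protein medians are -3.70 and -3.23 at 30 min and -0.95 and -0.96 at 60 min, while the box C/D and box H/ACA RNA medians are -0.55 and -0.09 and then -0.54 and -0.32.

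Intron-encoded snoRNAs allow an RNA to be set beside the messenger RNA made from the same transcript. Of the 8 such snoRNAs in the list, 5 were measured. snR191, in an intron of NOG2 (a large-subunit assembly factor), had 0.02 at 30 min while NOG2 had -3.32, a gap of 10.2-fold. snR54 had -1.13 and its host IMD4, of guanine nucleotide synthesis, had -3.33. snR44 had -0.12 and its host RPS22B, a small-subunit ribosomal protein gene, had -1.73. snR18 had -0.97 against -2.20 for EFB1 (a translation elongation factor). snR24 had -0.57 against -1.47 for ASC1, a ribosome-associated protein. In each of the 5 pairs the host was lower at 30 min, by 1.87-fold to 10.2-fold.

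At 60 min the pairs lay within 1.47-fold of each other. snR191 had -0.23 and NOG2 -0.78, snR54 had -1.09 and IMD4 -1.54, and snR24 had -0.57 and ASC1 -1.02. snR44 had -0.73 and RPS22B -0.60, and snR18 had -0.97 and EFB1 -0.80, so that in these pairs the snoRNA was the lower one. The hosts were higher at 60 min than at 30 min in all 5 pairs, by 0.45 (ASC1) to 2.54 (NOG2), whereas the snoRNAs differed by -0.61 (snR44) to 0.04 (snR54). With the 60 min array rescaled, 4 of the 5 hosts were higher at 60 min and 1 was lower. Higher at 60 min were 3437 of all 6868 features on the deposited scale, and 3470 of 6695 features other than members on the rescaled one. Whether probes of a host feature include the intron, and so the snoRNA, was not tested.

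**Figure D4:**
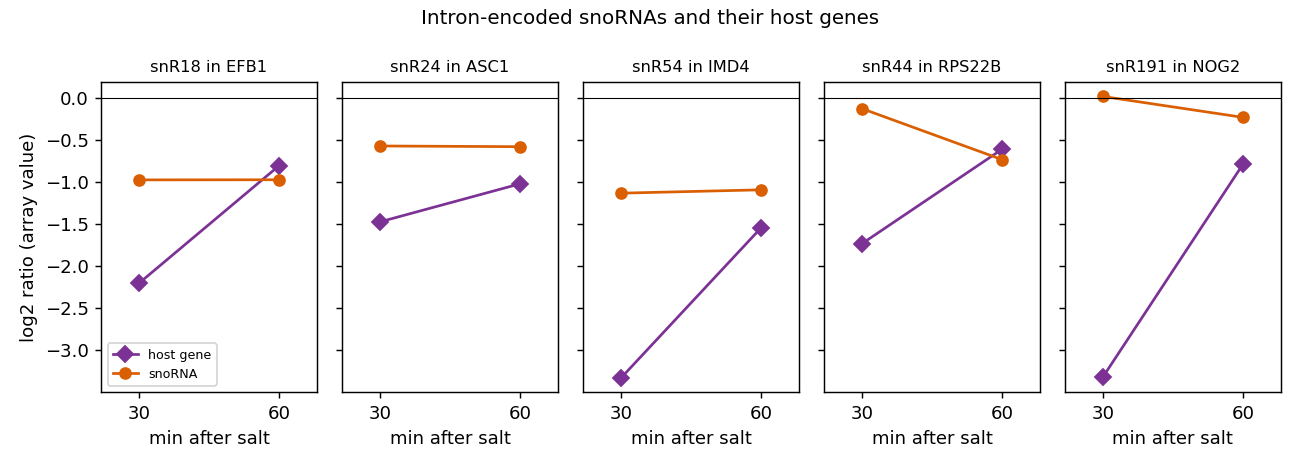
Log2 ratio (vertical axis) of 5 intron-encoded snoRNAs (circles) and their host genes (diamonds) against minutes after salt (horizontal axis), 1 array per time. Each host lies below its snoRNA at 30 min, by 10.2-fold for NOG2, and within 1.47-fold of it at 60 min.

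Of the 17 snoRNAs made from 5 shared precursors, 11 were measured, and all 11 were below 0 on both arrays. The same held for 50 of the 69 members in all. All 11 are box C/D snoRNAs, a class in which 32 of 35 genes were below 0 at 30 min and 32 at 60 min. Of all features, 49.6% were below 0 at 30 min and 49.5% at 60 min, and the share below 0 at both was not counted. The longest such transcript carries 7 box C/D snoRNAs, snR72 to snR78, of which 5 had values. snR77 had -1.28 at 30 min, against -0.30 for snR78, -0.42 for snR76, -0.55 for snR75 and -0.63 for snR72. RNAs cut from one precursor thus differed by up to 0.98 at 30 min. At 60 min the values were -0.93 for snR77, -0.10 for snR78, -0.29 for snR76, -0.49 for snR75 and -0.35 for snR72. On the deposited scale 5 of 5 were higher at 60 min than at 30 min, by 0.06 to 0.36, but with the 60 min array rescaled 4 of the 5 were lower, so their direction depends on the scale.

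The other shared precursors gave 6 values. snR190, a box C/D RNA that also acts in large-subunit assembly, had -0.59 and -0.54, and its partner snR128 had -0.15 and -0.51. snR51 and snR70 come from a precursor with snR41, and had -0.41 and -0.38, and -0.05 and -0.22. snR67 and snR55 are the only measured members of theirs, and snR55 had -0.24 and then -0.75. These RNAs are not independent of each other, since each precursor has 1 promoter.

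The values of snoRNA and snRNA genes showed little relation to those of their neighbours on the chromosome. In the reference annotation 40 of the 69 genes have a flanking protein-coding gene that was at least 2-fold lower at 30 min. Of the 121 flanking genes measured, 39 were 2-fold lower, against 17.3% of all features. Among the 40 genes with such a neighbour 2 were 2-fold lower themselves, against 4 of the 29 genes without one. The medians were -0.25 and -0.33. snR80 (0.36 at 30 min) lies between POL5 with -2.43 and RPL12A with -2.32. snR8 lies between FSF1 with -2.01 and YTM1 with -4.32, and had -0.91. Across the 69 genes, Pearson's r between a gene and the mean of its flanking genes was -0.11 at 30 min and -0.13 at 60 min, a description only, as clustered genes share flanking genes. Of the 69, 8 overlap another annotated gene. Besides the 5 intron-encoded ones these are snR10, snR17a and snR60, and whether their probes tell the strands apart is unknown here.

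Other stable RNAs without a poly(A) tail had values within the range of the snoRNAs. NME1, the RNA of RNase MRP, had -0.33 at 30 min and -0.45 at 60 min. RPR1, the RNA of RNase P, had -0.21 and -0.65, and SCR1, of the signal recognition particle, had -0.14 and -0.26. TLC1, the telomerase RNA, had 0.33 and 0.06. Nuclear transfer RNA genes (138 features) were lower than the snoRNAs, with a median of -0.81 at 30 min and -0.70 at 60 min, although transfer RNA genes of one family share sequence and may share probes.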

How the data were processed

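The deposited table holds log2 ratios, with 1 value for each annotated feature on each array. Per the labels, total RNA was isolated by hot phenol lysis, and cDNA made with amino-allyl-dUTP was coupled to dyes. The sources used here do not give background correction, normalization, the combination of probes into features or the build. The log base is not stated; base 2 was assumed, since values from -5.16 to 8.32 would as log10 pass the range of a scanner. Both columns have a median of 0 over the 6868 features. A value of exactly 0 was found for 63 features on the 30 min array and 75 on the other, 104 features in all, and may be a failed estimate; such features were left out of medians and of the comparisons with the 60 min array rescaled, and kept in the other counts.

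With 1 array per time no test was possible, and counts past 2-fold on the deposited scale are read against the share of all features past it. A run with planted values returned those values by construction, so it is no check of the counts and medians given here. Protein-coding genes were named through the locus tags of the reference table (assembly R64), which also gave the neighbours; no coordinates are printed. The alternatives are given in the closing section. The genes and lists were chosen with earlier results of these data known. The rule for names allowed any member, genes of the fixed lists, annotated neighbours, and RPR1, NME1, SCR1 and TLC1. The lists of guides by ribosomal subunit were added after the data were seen. Promoter motifs were planned and not analysed here. Python 3.11.15 with pandas 2.3.3 and matplotlib 3.10.9 was used.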

Additional observations from a re-analysis of the deposited data

Results flagged for a closer look

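14 genes stood on opposite sides of 0 at the 2 times, which was not tested and rests on 1 array each. The share of all features that did so was not counted, so this number is not read as a result about the members. The difference, 60 min minus 30 min in log2 units, was -0.60 for snR36, -0.57 for snR7-L, -0.54 for snR80 and -0.44 for snR84. It was -0.39 for snR43, -0.37 for snR83, -0.35 for snR63 and -0.35 for snR34. The remaining genes that were above 0 at 30 min and below it at 60 min had -0.31 (snR5), -0.29 (snR86), -0.28 (snR35), -0.25 (snR191) and -0.24 (snR31). Of these 13 genes, all but snR7-L and snR63 are box H/ACA snoRNAs. The median of that class was -0.09 at 30 min, so many of its genes started near 0. snR58, a box C/D guide of large-subunit rRNA, went the other way, from -0.20 to 0.11, a difference of 0.31. Each of these 14 genes was within 2-fold of 0 on both arrays.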

How the results depend on the processing

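The counts depend on where the threshold lies, since the values are small. At 1.5-fold, 18 members passed at 30 min and 23 at 60 min; at 3-fold, 0 and 0 did, with 1 array per time and no test. Read as natural logs, the deposited values put 14 and 19 members past 2-fold. By rank, chosen after seeing the data, 0 members at 30 min and 18 at 60 min were in the lowest 10% of features. With both arrays brought to equal spread, 27 members were past 2-fold at 60 min, the 60 min median was -0.79 and the median difference between the times was -0.51. The matching shares of all features at 1.5-fold, at 3-fold, as natural logs and with equal spread were not counted. These counts are thus not read as a result about the members. The other 25 values, from treating zeros differently, re-centring, and leaving out intron-encoded, polycistronic or spliceosomal genes, kept their sign and lay within 1.5 times the reported value. Without intron-encoded and polycistronic genes, also chosen after seeing the data, the class medians were -0.48 (box C/D) and -0.09 (box H/ACA) at 30 min and -0.54 and -0.32 at 60 min. The gap between the class medians at 60 min, -0.22 as reported, was -0.41 with equal spread, a setting added for it after seeing the data. No paired analysis was possible because there is 1 array per time and no replicate. Signal over background is unknown, as no intensities were used.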
